A study of Homo sapiens with 12 samples.

Results

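The 41 genes described here code for nuclear receptors other than the thyroid hormone receptors and the retinoid X receptors. They were taken by symbol from a list of the family, and all 41 were among the 56832 gene symbols counted. The RNA came from cells labelled SW1736, a cell line of anaplastic thyroid cancer, the undifferentiated form of that tumour. Cells carried either the empty vector pCDH-EV (EV cells) or pCDH-TRB, which supplies thyroid hormone receptor beta stably (TRB cells). All 4 groups spent 24 h in medium with charcoal-stripped serum and no phenol red, and then 24 h with 10 nM triiodothyronine (T3) or with its vehicle, NaOH. Each vector was thus sequenced under each treatment, in 3 libraries per group. The promoter of the vector and whether the cells were 1 clone or a pool are not given in the sources used here.

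Nuclear receptors are transcription factors, most of which bind DNA through zinc fingers and many of which are switched by a small lipid-soluble ligand such as a retinoid, an oxysterol, a fatty acid, vitamin D or a steroid. Several of them, including the retinoic acid receptors, the peroxisome proliferator-activated receptors (PPARs), the liver X receptors (LXRs) and the vitamin D receptor, bind DNA as partners of a retinoid X receptor, as the thyroid hormone receptors also do. Others act as single molecules or as pairs of themselves, and some have no known natural ligand and are called orphan receptors. The binding sites of many of them are built from the 6-base half-site AGGTCA.

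Levels are counts scaled to a common library size (CPM, after TMM scaling), and tests are edgeR quasi-likelihood tests called at an adjusted p (Benjamini-Hochberg, over all genes tested) under 0.05. Libraries held 3819306 to 13086717 counts in genes, so that 3 counts, taken as the floor of detection, were worth 0.225 to 0.759 CPM, a limit that covers counting error only. THRB, the gene of the supplied receptor, lay at 12.3 to 18.3 CPM in the 6 EV libraries, 79.8 to 80.4 CPM in TRB cells with vehicle and 190.3 to 322 CPM in TRB cells with T3. The library of TRB cells with T3 replicate 2 stood apart: the biological coefficient of variation of its group was 0.629 with it and 0.0576 without it. Every comparison of the receptor genes is therefore given for all 12 libraries and for the 11 without that one. Of 9 markers of thyroid follicular cells, TSHR and FOXE1 had no count, 4 stayed at or under 3 counts in every library, and the 9 together summed to 1.44 to 11.1 CPM. Defining genes of the labelled tissue were thus absent or near the floor. The 5 epithelial markers summed to 2028 to 5013 CPM in every library. VIM, the mesenchymal intermediate filament gene, did not exceed 1.51 CPM. The labels do not say that the libraries of a group came from separate cultures, so p-values measure only the spread between these libraries.

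The departure of TRB with T3 replicate 2 was visible in the receptors themselves. Of the 24 receptor genes with enough counts to test, 16 lay below both other replicates in that library and 8 above both. The difference in log2 CPM from the mean of replicates 1 and 3 ranged from -3.26 for PPARD to 1.703 for NR1D2. Across these 24 genes the difference ran against the GC content of the transcript, with a Spearman correlation of -0.83, beside -0.89 across the 12157 tested genes with a GC value. The genes share 1 library in this comparison, and the correlation is a description. PPARG (0.01) and VDR (-0.02) hardly differed between this library and the others, and NR2F1, with 59.0% GC, lay 1.02 above them.

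**Figure D1:**
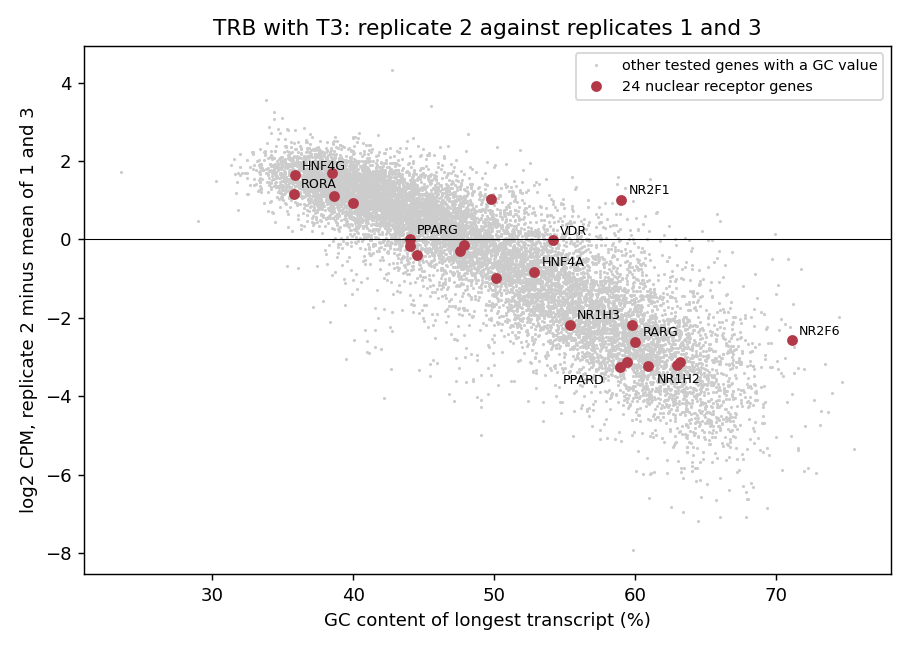
Difference in log2 CPM between TRB with T3 replicate 2 and the mean of replicates 1 and 3 (vertical axis) against the GC content of the longest transcript in percent (horizontal axis), with each red point 1 of 24 nuclear receptor genes and each grey point another tested gene. Receptor genes of high GC content such as PPARD (-3.26) lie low, those of low GC content such as HNF4G (1.64) lie high, and NR2F1 (1.02) lies above the trend.

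The starts of a few genes on which the results turn are shown, because thyroid hormone receptors and many of the receptors described here share the AGGTCA half-site. The windows are the 250 bases before an annotated start, read 5′ to 3′ on the strand of the gene from the RefSeq promoters of build GRCh38.p14. AGGTCA on either strand is in capitals. The genes are HNF4A, which fell with T3 in TRB cells in every library, PPARD, which had the largest positive log2 fold change of the 24 when the departing library was left out, and NR1H3 and PPARG, of which the windows shown were chosen because they hold a half-site. The windows are chr6:35342308-35342557 for PPARD, chr20:44355449-44355698 and chr20:44400989-44401238 for HNF4A, chr11:47248050-47248299 for NR1H3, and chr3:12287118-12287367 and chr3:12288810-12289059 for PPARG, all on the plus strand.
PPARD: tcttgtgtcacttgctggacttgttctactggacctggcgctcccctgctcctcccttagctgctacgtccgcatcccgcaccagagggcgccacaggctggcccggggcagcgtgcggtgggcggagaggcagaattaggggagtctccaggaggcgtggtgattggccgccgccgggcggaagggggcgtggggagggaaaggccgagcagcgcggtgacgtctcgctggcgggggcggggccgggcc
HNF4A upstream start: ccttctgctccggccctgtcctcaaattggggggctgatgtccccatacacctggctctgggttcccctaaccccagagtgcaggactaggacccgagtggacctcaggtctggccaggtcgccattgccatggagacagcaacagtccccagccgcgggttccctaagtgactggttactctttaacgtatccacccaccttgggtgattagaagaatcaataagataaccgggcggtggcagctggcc
HNF4A downstream start: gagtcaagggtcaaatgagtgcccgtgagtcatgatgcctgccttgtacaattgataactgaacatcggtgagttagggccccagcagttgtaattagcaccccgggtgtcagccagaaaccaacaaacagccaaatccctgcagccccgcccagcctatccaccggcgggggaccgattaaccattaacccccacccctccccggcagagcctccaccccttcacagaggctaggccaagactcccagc
NR1H3: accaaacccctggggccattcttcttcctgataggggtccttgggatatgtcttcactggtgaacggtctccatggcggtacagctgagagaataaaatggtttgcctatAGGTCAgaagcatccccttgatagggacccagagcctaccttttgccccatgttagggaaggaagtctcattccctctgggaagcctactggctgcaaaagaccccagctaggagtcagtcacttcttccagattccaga
PPARG upstream start: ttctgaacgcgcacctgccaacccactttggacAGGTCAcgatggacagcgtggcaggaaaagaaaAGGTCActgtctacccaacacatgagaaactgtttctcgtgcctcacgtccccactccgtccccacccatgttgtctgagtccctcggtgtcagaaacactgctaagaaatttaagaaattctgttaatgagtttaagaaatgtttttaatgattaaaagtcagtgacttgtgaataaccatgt
PPARG second start: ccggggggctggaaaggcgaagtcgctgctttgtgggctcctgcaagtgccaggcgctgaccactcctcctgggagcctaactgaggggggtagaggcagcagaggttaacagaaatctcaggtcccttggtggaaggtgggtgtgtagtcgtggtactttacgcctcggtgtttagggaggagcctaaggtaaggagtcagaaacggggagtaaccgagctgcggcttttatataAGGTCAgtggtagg
PPARD and HNF4A, which moved in opposite directions, both lacked the half-site in these windows. Of the 4 windows listed for NR1H3, 3 lacked it, and so did 3 of the 6 for PPARG. The NR1H3 window shown holds 1, which ends 134 bases before the start. The upstream PPARG window holds 2 in the same direction, ending 211 and 178 bases before the start, and the other PPARG window holds 1 that ends 8 bases before it. Promoters were listed for 36 of the 41 genes, in 88 windows, of which 14 (15.9%) held a half-site, against 12.1% of all 35116 windows. Those 14 belonged to 10 genes. Windows of close starts overlap, so that a PPARG site and an ESR2 site were each counted in more than 1 window. VDR, HNF4G, NR2F6, NR4A2 and NR0B2 were not matched. A pair of AGGTCA copies in the same direction and 4 bases apart, the arrangement classically bound by thyroid hormone receptors, was in 0 of the 88 windows and in 0.0142% of all windows. A match describes letters in the window and is not evidence of binding.

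Of the 41 genes, 24 had enough counts to be tested and 16 had a mean under 0.5 CPM in all 4 groups. The remaining gene, NR0B2 (SHP, a receptor without a DNA-binding domain that represses other receptors), was also not tested. It had 8, 0 and 8 counts in the 3 libraries of TRB cells with T3 and at most 2 counts in each of the others. The near-zero genes were RARB, RORB, NR1H4 (the bile acid receptor FXR), NR1I2 and NR1I3 (the xenobiotic receptors PXR and CAR), NR2E1, NR2E3, ESR1 and ESR2 (the estrogen receptors), ESRRB, ESRRG, NR3C1, PGR (the progesterone receptor), NR4A3, NR5A1 and NR0B1. RORB, NR1I2, ESR1, PGR and NR0B1 had no count in any library. NR3C1 codes for the glucocorticoid receptor, which most cultured cells express. It had 4 counts in all 12 libraries together, the highest being 2 in 1 library. NR3C2, the mineralocorticoid receptor, was the member of the steroid group that could be tested, at 1.83 to 3.70 CPM over the 12 libraries. For the near-zero genes a change between groups was not detectable at this depth.

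The levels of the 24 tested genes were compared per kilobase of exon in EV cells with vehicle, which allows a comparison between genes. The length is the union of a gene's annotated exons. On that length NR2F2 (COUP-TFII, an orphan receptor) had the highest level, 19.7 CPM per kb. PPARG followed with 16, the orphan receptor NR2F6 with 15.5, the estrogen-related receptor gene ESRRA with 15.2 and HNF4A with 14.5 CPM per kb. These high values belong to receptors of several branches of the family. RARG (11.9), the clock repressor NR1D2 (11.5), RARA (9.99), PPARD (9.60) and the LXR gene NR1H3 (9.12) came next on the same scale. VDR stood at 5.12, the immediate early receptor NR4A1 at 1.68, RORA at 0.701 and NR3C2 at 0.384 CPM per kb, the lowest of the 24. The 3 libraries of neighbours in this order overlapped in 13 of 23 neighbouring pairs and were apart in 10, so the order within the upper group is not resolved. It also depended on the length used: per kb of the longest transcript PPARG stood highest at 35.8 and NR2F2 next at 24.2 CPM per kb. At 5 CPM per kb or more stood 15 genes.

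**Figure D2:**
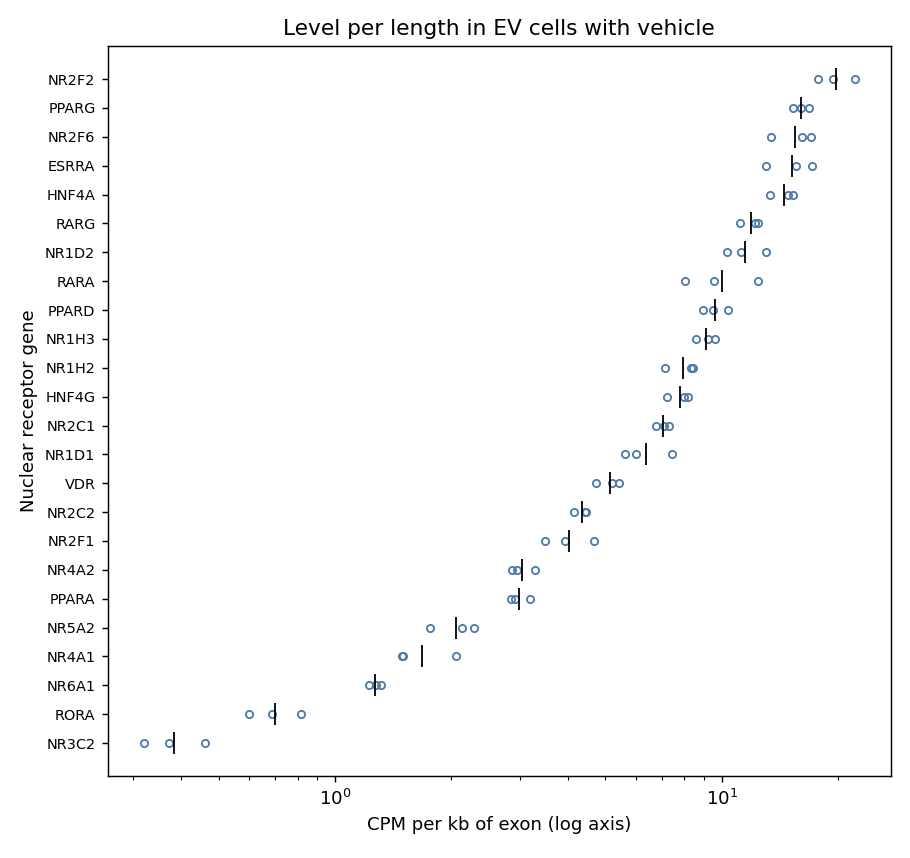
Level of each of the 24 tested receptor genes in EV cells with vehicle, in CPM per kb of the union of exons on a log axis, with an open circle for each of 3 libraries and a bar for their mean. On this length NR2F2 is highest at 19.7 and NR3C2 lowest at 0.384 CPM per kb.

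T3 was compared with vehicle in TRB cells to see which receptor genes respond to hormone when its receptor is supplied. With all 12 libraries 4 receptor genes fell and 0 rose: HNF4A, VDR, PPARG and NR6A1. Without TRB with T3 replicate 2 the same 4 passed and 7 more did, giving 8 lower and 3 higher of 24 tested. The 3 that rose were PPARD, RARG and PPARA. Over all genes tested, 8.54% rose and 6.2% fell with 12 libraries, and 18.1% rose and 15.2% fell with 11. The median log2 fold change of the 24 was -0.28 with 12 libraries, beside 0.01 for all genes, and -0.29 with 11, beside -0.01. In bulk RNA, fewer cells of a type and less RNA per cell cannot be told apart.

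HNF4A (chr20:44355700-44434596) codes for hepatocyte nuclear factor 4 alpha, a factor of liver, gut and kidney epithelium. It had 126, 120.5 and 125 CPM in TRB cells with vehicle and 40.8, 23.2 and 41.7 CPM with T3. Every library with T3 lay at less than any library with vehicle, including replicate 2. The log2 fold change in edgeR was -1.81 (SE 0.222, adjusted p = 0.000354) with 12 libraries and -1.53 (SE 0.119, adjusted p = 8.26e-07) with 11. Its relative HNF4G had 23.4, 30.8 and 28.5 CPM with vehicle and 23.04, 65.5 and 19.0 CPM with T3. That gene did not pass in either fit.

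VDR (chr12:47841537-47943048), the vitamin D receptor gene, had 24.9, 28.3 and 27.8 CPM with vehicle and 12.3, 12.1 and 12.1 CPM with T3. All 3 T3 libraries were close together, and replicate 2 did not differ from the others. The log2 fold change in edgeR was -1.15 (SE 0.152, adjusted p = 0.000557) with 12 libraries and -1.10 (SE 0.129, adjusted p = 3.18e-05) with 11. HNF4A and VDR passed in all 20 alternative settings of this comparison.

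The 3 PPARs, which sense fatty acids, moved in different directions. PPARG (chr3:12287368-12434356), the regulator of fat cell formation, had 64.7, 64.3 and 62.7 CPM with vehicle and 45.7, 46.2 and 46.1 CPM with T3. The T3 libraries lay below all vehicle libraries, with log2 fold changes in edgeR of -0.47 (SE 0.132, adjusted p = 0.0358) and -0.43 (SE 0.101, adjusted p = 0.00562) with 12 and 11 libraries. The call with 12 libraries held in 6 of 20 alternative settings, and the adjusted p reached 0.292 with no filter on low counts. PPARD (chr6:35342558-35428191), the widely expressed member of the group, had 38.8, 42.4 and 39.1 CPM with vehicle and 208, 22.8 and 235 CPM with T3. Replicates 1 and 3 were far above all vehicle libraries and replicate 2 was below them. The log2 fold change in edgeR was 1.95 (SE 0.606, adjusted p = 0.0540) with all 12 libraries, which did not pass, and 2.51 (SE 0.154, adjusted p = 1.03e-07) without replicate 2. With offsets that take out each library's trend against GC content it was 2.19 with all 12 libraries (edgeR adjusted p = 3.28e-06). PPARA (chr22:46150521-46243756), which drives fatty acid oxidation in liver, had 36.1, 39.3 and 34.2 CPM with vehicle and 54.9, 42.1 and 47.8 CPM with T3. All 3 T3 libraries were higher, and the gene passed in edgeR with 11 libraries, at a log2 fold change of 0.54 (SE 0.114, adjusted p = 0.00281), but not with 12, at 0.40 (SE 0.156, adjusted p = 0.113).

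Of the retinoic acid receptors, RARG (chr12:53210567-53232980) had 59.1, 59.5 and 59.6 CPM with vehicle and 105, 17.8 and 114 CPM with T3. As with PPARD, replicates 1 and 3 were above the vehicle libraries and replicate 2 below them. RARG rose in edgeR without replicate 2, at a log2 fold change of 0.93 (SE 0.161, adjusted p = 0.000690), and did not pass with 12 libraries. RARA had 49.8, 58.3 and 51.4 CPM with vehicle and 37.6, 4.50 and 50.1 CPM with T3, and did not pass in either fit.

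Of the LXR genes, whose products are activated by oxysterols, NR1H3 (LXR alpha, chr11:47248300-47269032) had 44.8, 41.3 and 43.3 CPM with vehicle and 20.3, 4.86 and 25.4 CPM with T3. All 3 T3 libraries were lower, with replicate 2 the lowest. The log2 fold change in edgeR was -1.35 (SE 0.434, adjusted p = 0.0624) with 12 libraries, which did not pass, and -0.88 (SE 0.155, adjusted p = 0.000824) with 11. NR1H2 (LXR beta) had 35.1, 33.7 and 36.9 CPM with vehicle and 39.7, 4.14 and 42.3 CPM with T3, and did not pass in either fit.

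Among the receptors of the circadian clock, RORA (chr15:60488284-61229319), an activator, had 6.50, 12.2 and 12.1 CPM with vehicle and 3.83, 6.12 and 1.75 CPM with T3. The groups did not overlap, by a narrow margin. It passed in edgeR with 11 libraries, at a log2 fold change of -1.76 (SE 0.382, adjusted p = 0.00339), but not with 12, at -1.43 (SE 0.449, adjusted p = 0.0571). The repressors NR1D1 and NR1D2 (REV-ERB alpha and beta) did not pass in either fit. NR1D2 stood at 170.0 CPM in replicate 2 against 51.9 and 52.2 CPM in the other T3 libraries and 42.4 to 60.1 CPM with vehicle.

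The orphan receptor NR2F1 (COUP-TFI, chr5:93583224-93594615) had 12.9, 16.6 and 13.3 CPM with vehicle and 5.40, 11.9 and 6.12 CPM with T3. It was lower in all 3 T3 libraries and passed in edgeR with 11 libraries, at a log2 fold change of -1.27 (SE 0.188, adjusted p = 0.000207), but not with 12 (-0.89, SE 0.288, adjusted p = 0.0626). With GC offsets and all 12 libraries it was -0.19, with an edgeR adjusted p of 0.846. NR5A2 (LRH-1, a regulator of bile acid and steroid genes, chr1:200027602-200177424) had 15.96, 17.3 and 13.1 CPM with vehicle and 9.23, 16.01 and 7.37 CPM with T3. Replicate 2 lay among the vehicle libraries, and the gene passed in edgeR with 11 libraries (log2 fold change -0.83, SE 0.197, adjusted p = 0.00577) but not with 12 (-0.52, SE 0.281, adjusted p = 0.236). NR6A1 (germ cell nuclear factor, chr9:124517275-124771310) had 12.2, 8.36 and 10.7 CPM with vehicle and 6.30, 2.88 and 5.50 CPM with T3. It fell in both edgeR fits, by -1.06 (SE 0.269, adjusted p = 0.0233) with 12 libraries and -0.76 (SE 0.184, adjusted p = 0.00679) with 11 on the log2 scale. The call with 12 libraries was lost in 6 of 20 alternative settings, with an adjusted p of up to 0.210 when the compared groups were fitted alone.

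**Figure D3:**
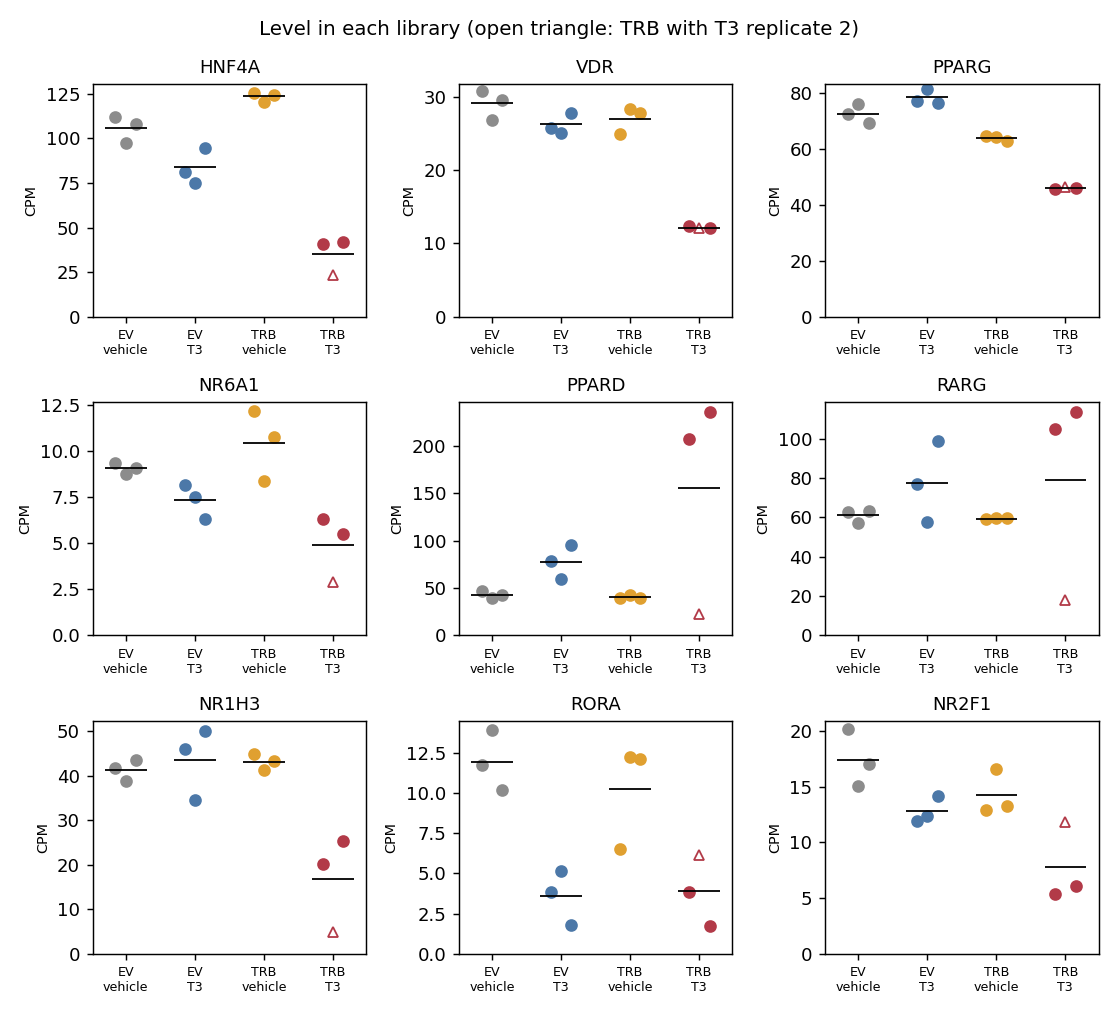
CPM in each library for 9 receptor genes, by group, with the bar at the mean of 3 libraries and TRB with T3 replicate 2 drawn as an open triangle. HNF4A, VDR, PPARG and NR6A1 are lower in all 3 libraries of TRB cells with T3 than in TRB cells with vehicle, while PPARD and RARG are high in replicates 1 and 3 and low in replicate 2 (22.8 and 17.8 CPM).

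The other 13 tested receptor genes did not pass in this comparison in either edgeR fit. They include the NR4A receptors, which are rapidly induced in many cells. NR4A1 had 14.8, 15.1 and 12 CPM with vehicle and 15.3, 3.42 and 17.6 CPM with T3, and NR4A2 had 8.64, 10.8 and 9.57 CPM with vehicle and 7.35, 6.66 and 7.24 CPM with T3. ESRRA, a regulator of mitochondrial genes, had 63.6, 58.3 and 64.0 CPM with vehicle and 42.6, 4.68 and 42.1 CPM with T3. All 3 values with T3 were lower than any with vehicle for NR4A2 and ESRRA, and the edgeR adjusted p values with 11 libraries were 0.106 and 0.149. With GC offsets NR4A2, ESRRA, HNF4G and NR2F6 passed with 12 and with 11 libraries, where 42.6% and 56% of all genes passed.

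The same treatment in EV cells, which carried no supplied receptor, gave fewer calls. With 12 libraries 0 of 24 receptor genes passed in edgeR (1 had an unadjusted p under 0.05, and DESeq2 called 1, RORA). Over all genes, 0.208% rose and 0.0208% fell in that fit. With 11 libraries PPARD rose and RORA fell, where 3.76% of all genes rose and 3.57% fell. The library left out is not one of those compared here, and enters through the shared estimate of spread. The EV libraries with T3 also varied more, with a biological coefficient of variation of 0.219 against 0.0925 in EV cells with vehicle.

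PPARD had 46.3, 39.8 and 42.4 CPM in EV cells with vehicle and 78.1, 59.8 and 94.9 CPM with T3. Every T3 library was above every vehicle library. The log2 fold change in edgeR was 0.85 (SE 0.145, adjusted p = 0.00518) with 11 libraries and 0.86 (SE 0.593, adjusted p = 0.935) with 12. RORA had 11.7, 13.9 and 10.2 CPM with vehicle and 3.86, 5.18 and 1.77 CPM with T3, again without overlap. Its log2 fold change in edgeR was -1.59 (SE 0.347, adjusted p = 0.0196) with 11 libraries and -1.67 (SE 0.457, adjusted p = 0.307) with 12. HNF4A had 112, 97.7 and 108 CPM with vehicle and 81.3, 75.0 and 94.9 CPM with T3. It did not pass with 11 libraries, at an edgeR log2 fold change of -0.34 (SE 0.102, adjusted p = 0.0608), or with 12 (-0.34, adjusted p = 0.935). With GC offsets it passed as lower in both, at -0.48 (edgeR adjusted p = 0.00293) with 12 libraries and -0.49 (adjusted p = 5.32e-05) with 11. NR1H2, NR2F1, PPARG, RARA and VDR also passed with GC offsets and 11 libraries, where 17.7% of all genes did. Deviations of the EV with T3 libraries from their group mean also ran with GC content over the 24 genes, with Spearman correlations of -0.92 for replicate 2 and 0.89 for replicate 3. The part of this trend in the EV results was not tested beyond the GC offsets, with which PPARD was at 0.62 in both the fit of 12 libraries (edgeR adjusted p = 0.0997) and that of 11 (adjusted p = 1.83e-05).

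Whether the response to T3 differed between TRB and EV cells was tested as the interaction of vector and treatment. The rise of THRB RNA with T3 in TRB cells enters this comparison too. HNF4A and VDR differed with 12 libraries, where 1.77% of all genes had a positive and 0.825% a negative interaction. HNF4A fell more in TRB cells by -1.47 (SE 0.307, edgeR adjusted p = 0.0334) and VDR by -1.001 (SE 0.212, edgeR adjusted p = 0.0351) on the log2 scale. VDR had 30.8, 26.9 and 29.5 CPM in EV cells with vehicle and 25.8, 25.0 and 27.8 CPM with T3, so that its EV groups overlapped. With GC offsets and 11 libraries VDR did pass for T3 in EV cells. Both interaction calls were lost when any 1 of the 9 libraries other than those of TRB cells with T3 was left out, with edgeR adjusted p values of up to 0.129 for HNF4A without EV with vehicle replicate 2. That of VDR was also lost without TRB with T3 replicate 1 or 3, under the replicate block (edgeR adjusted p = 0.0543) and with GC offsets (adjusted p = 0.282). With no filter on low counts both were lost, with edgeR adjusted p values of 0.0973 for HNF4A and 0.290 for VDR.

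With 11 libraries 6 receptor genes had an interaction, 1 positive and 5 negative, where 8.55% of all genes were positive and 6.68% negative. PPARD rose more in TRB cells, by 1.66 (SE 0.210, edgeR adjusted p = 0.000273). HNF4A (-1.19, SE 0.155), VDR (-0.95, SE 0.170), NR1H3 (-0.94, SE 0.206), NR2F1 (-0.84, SE 0.247) and PPARG (-0.55, SE 0.135) had lower log2 fold changes in TRB than in EV cells. The interaction of NR2F1 was -0.45 with 12 libraries (edgeR adjusted p = 0.486) and turned to 0.44 with GC offsets and 12 libraries (adjusted p = 0.768). NR1H3 had 41.7, 38.8 and 43.6 CPM in EV cells with vehicle and 46.0, 34.6 and 50.1 CPM with T3, and PPARG had 72.5, 76.1 and 69.1 CPM with vehicle and 77.3, 81.6 and 76.4 CPM with T3. The EV groups of NR1H3 overlapped, and the T3 libraries of PPARG lay just above its vehicle libraries. RORA had no interaction call: its log2 fold changes were -1.76 in TRB and -1.59 in EV cells.

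**Figure D4:**
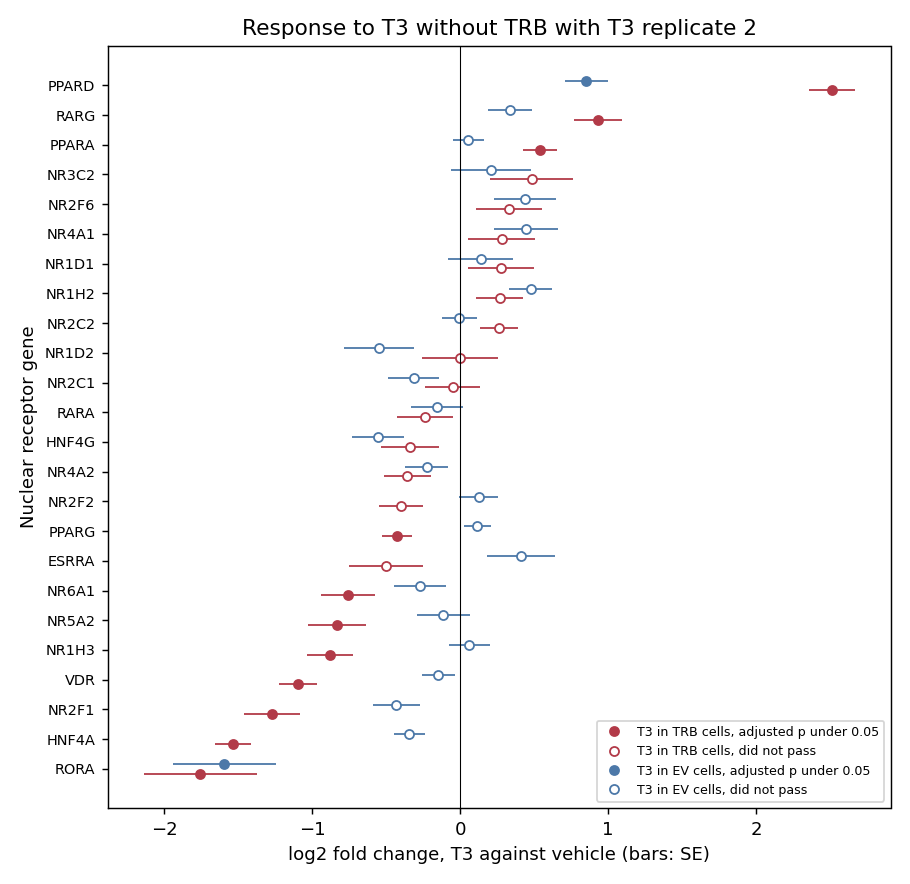
Log2 fold change of T3 against vehicle (horizontal axis, bars are the SE) for the 24 tested receptor genes in TRB cells (red) and EV cells (blue), from the edgeR fit of 11 libraries, with filled points for an adjusted p under 0.05. PPARD (2.51 in TRB, 0.85 in EV cells) is highest and RORA (-1.76 and -1.59) lowest in both kinds of cell.

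TRB cells were compared with EV cells under vehicle to see what the supplied receptor does without added hormone. In edgeR 0 of 24 receptor genes passed with 12 libraries and 0 with 11. Unadjusted p values under 0.05 numbered 0 and 4, and DESeq2 called 0. Few genes passed in all: 0.00693% higher and 0.0139% lower with 12 libraries, and 0.027% higher and 0.0472% lower with 11. When the 2 groups were fitted alone, ESRRA and HNF4G passed, 2 of 24, in a fit where 1563 of 14008 genes (11.2%) passed. ESRRA had 47.1, 39.4 and 51.7 CPM in EV and 63.6, 58.3 and 64.0 CPM in TRB cells, and HNF4G had 34.7, 39.4 and 38.3 CPM in EV and 23.4, 30.8 and 28.5 CPM in TRB cells.

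Under T3, TRB cells had lower VDR, PPARG and HNF4A than EV cells with all 12 libraries, and 0 of 24 receptor genes were higher. Over all genes tested 4.13% were higher and 2.55% lower. The log2 fold changes in edgeR were -1.11 for VDR (SE 0.152, adjusted p = 0.00190), -0.77 for PPARG (SE 0.133, adjusted p = 0.00642) and -1.24 for HNF4A (SE 0.220, adjusted p = 0.00731). This comparison shares its TRB libraries with that of T3 against vehicle in TRB cells. All 3 calls were lost when the compared groups were fitted alone, replicate 2 included, with an adjusted p of up to 0.294.

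With 11 libraries 10 receptor genes differed, 3 higher and 7 lower, where 11.8% of all genes were higher and 7.9% lower. PPARD (log2 fold change 1.59), RARG (0.57) and PPARA (0.40) were higher in TRB cells, and HNF4A (-0.95), VDR (-1.03), PPARG (-0.71), NR1H3 (-0.87), NR2F1 (-1.09), NR5A2 (-0.71) and NR2F2 (-0.87) were lower. NR2F2 (chr15:96325938-96340263) had 136, 149 and 130.3 CPM in EV cells with T3 and 65.9, 148 and 79.7 CPM in TRB cells with T3. Replicate 2 lay within the EV range and the others below it, and with 11 libraries the edgeR adjusted p was 0.00134 (SE 0.151). RARG had 77.0, 57.6 and 98.7 CPM in EV cells with T3. Its sign depended on replicate 2: the log2 fold change was 0.57 without that library and -0.32 without TRB with T3 replicate 3, where it did not pass.

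Genes known to be controlled by these receptors were read from 10 lists, which were chosen with earlier results of these data known and are described without a test. In TRB cells with T3, the fit of 11 libraries gave the following counts, beside 18.1% of all genes higher, 15.2% lower and a median log2 fold change of -0.01. Of the retinoic acid list 6 of 12 genes were tested, 3 rose and 1 fell, with a median of 0.39. The retinoic acid carrier CRABP2 (1.31), the retinal reductase DHRS3 (1.26) and TGM2 (1.12) rose and the retinol dehydrogenase RDH10 (-1.32) fell on the log2 scale, and with 12 libraries 0 passed in edgeR. Of the PPAR list 8 of 12 were tested, 1 rose and 4 fell, with a median of -0.43. ACSL1, which activates fatty acids, rose (1.05), while CPT1A (-0.69), which admits fatty acids to mitochondria, the pyruvate dehydrogenase kinase gene PDK4 (-1.10) and ACADVL (-0.46) were among those that fell. ACSL1 and CPT1A also passed with 12 libraries, in the same directions. Of the LXR list 8 of 10 were tested, 3 rose and 3 fell, with a median of 0.01. The lipogenic regulator SREBF1 (1.77) and APOE (0.82) rose, and the cholesterol exporter ABCG1 (-1.20) and SMPDL3A (-1.02) fell. ABCG1 passed with 12 libraries too, at -1.55.

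The clock list, with 14 of 15 genes tested, had 4 higher and 3 lower in TRB cells with T3 and a median of 0.02. The repressor BHLHE41 rose by 3.60, DBP by 1.26 and PER3 by 0.98 on the log2 scale, and HLF fell to 0.0750 to 0.540 CPM from 1.42 to 2.01 CPM. With 12 libraries 3 genes of this list were higher and 2 lower in edgeR, and DBP did not pass. Genes listed for receptors that were near zero here also passed. Of the glucocorticoid receptor list 10 of 11 were tested, 4 rose and 3 fell, with a median of 0.21, led by SGK1 (4.38), KLF9 (3.52, also a classical thyroid hormone target), MT2A (-1.70) and CRISPLD2 (1.00). With 12 libraries 2 of that list rose and 1 fell in edgeR, and CRISPLD2 did not pass. All 3 tested genes of the 6 on the estrogen receptor list rose: PDZK1 by 3.43, CA12 by 2.88 and XBP1 by 0.48, a median of 2.88, in cells with no ESR1 count. These 3 also passed with 12 libraries. Of the bile acid and xenobiotic receptor list 2 of 6 were tested. The hormone gene FGF19 rose from 0 to 0.0862 CPM with vehicle to 24.2, 9.35 and 22.4 CPM with T3, and CYP2B6 fell by 1.27 on the log2 scale. Both also passed with 12 libraries.

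Of the vitamin D list 4 of 7 genes were tested in TRB cells, 2 rose and 1 fell. CYP24A1, the vitamin D 24-hydroxylase and a classical VDR target, was at 0, 0.0862 and 0.0839 CPM with vehicle and 1.43, 1.98 and 2.25 CPM with T3, while VDR itself fell. CD14 was at 0.345 to 0.420 CPM with vehicle and 9.23, 0.180 and 9.74 CPM with T3, and CYP27B1 fell by 0.58 on the log2 scale. With 12 libraries CYP24A1 and CD14 passed in edgeR and CYP27B1 did not. CD14 is also 1 of 4 leukocyte markers. These summed to 0.407 to 0.517 CPM in TRB cells with vehicle and 0.180 to 9.87 CPM with T3, with CD3E at 0 everywhere and PTPRC at most 0.217 CPM. The 6 mesenchymal markers summed to 35.9 to 38.6 CPM in TRB cells with vehicle and 149 to 317 CPM with T3. FN1 made up 147 to 303 CPM of the sum with T3. COL1A1 went the other way, with 273, 313 and 300 counts with vehicle and 182, 8 and 119 with T3. VIM had 7, 8 and 18 counts with vehicle and 0, 6 and 2 with T3. COL1A2 was at 0, and PDGFRB and THY1 had at most 1 count in any library. The part of mesenchymal cells in the receptor results was not tested. Of the immediate early list 7 of 8 were tested, 2 rose (EGR3 by 1.97 and FOSB by 1.24) and ATF3 fell by 1.92 on the log2 scale, with a median of 0.25. With 12 libraries EGR3 and ATF3 passed in edgeR and FOSB did not. Of the 3 tested of 4 coactivators and corepressors of the estrogen-related receptors, PPARGC1A rose by 0.71 and PPARGC1B fell by 0.78, with a median of -0.21. With 12 libraries PPARGC1B passed in edgeR and PPARGC1A did not.

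In EV cells with T3, the targets that passed in edgeR with 12 libraries were SGK1 (log2 fold change 1.44) and KLF9 (3.41). With 11 libraries the counts below stand beside 3.76% of all genes higher, 3.57% lower and a median log2 fold change of 0.01. The clock list had 3 higher and 0 lower (DBP 1.25, BHLHE41 1.07 and TEF 0.54), with a median of -0.02, and the estrogen receptor list 2 higher (PDZK1 1.37 and CA12 0.66), with a median of 0.66 over 3 tested genes. The glucocorticoid list had 2 higher and 2 lower (TSC22D3 -0.95 and ERRFI1 -0.68), with a median of 0.0033. The retinoic acid list had 1 higher (CRABP2 0.44) and 1 lower (RDH10 -0.75), with a median of 0.11, and the LXR list 1 lower (ABCG1 -0.58), with a median of -0.06. The PPAR list had 1 higher and 1 lower (ACADM, a gene of fatty acid oxidation, -0.58), with a median of 0.0032. FGF19 was higher, and ATF3 (-1.56) and PPARGC1A (-1.13) were lower, where the medians were 0.19 for the immediate early list and -0.29 for the coactivators and corepressors. Of the vitamin D list 0 genes passed, with a median of -0.03.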

How the data were processed

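RNA sequencing of total RNA gave 12 libraries in 4 groups of 3, grouped by the labels. The deposited files hold the authors' raw read counts for every gene symbol. Per the submitters' processing notes CASAVA 1.7, STAR 2.7, HTSeq 0.10, DESeq2 and build hg38 were used. Counting options, strand use and annotation are not given in the sources used here. The 5 closing lines for reads of no gene were left out: per library, non-unique alignments took 19.0% to 92.0% of all that was counted, reads in no feature 2.14% to 24.4%, and ambiguous ones 0.258% to 1.81%. Non-unique alignments were lowest in TRB with T3 replicate 2 and highest in EV with T3 replicate 3. The latter library also had the fewest counts in genes. Exons of 11 of the 24 tested receptor genes overlap exons of another gene (RARA in 17.9% of its exon bases, NR2C2 in 11.4%, NR4A1 in 10.3%, NR1D1 in 9.49%, shared with THRA), so reads of these may be misassigned.

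The tests used edgeR 4.0.16 under R 4.3.3 (filterByExpr with minimum count 10 and minimum total 15, TMM, quasi-likelihood test, two-sided, Benjamini-Hochberg at 0.05), with 1 coefficient per group. This tested 14431 genes with 12 libraries and 14825 without TRB with T3 replicate 2. Standard errors come from the log2 fold change and its F statistic. DESeq2 1.42.0, other scalings, filters, a replicate block, the compared groups alone, GC offsets (a spline with 5 degrees of freedom per library) and leaving out each library were alternatives. Lengths, GC content and coordinates come from GENCODE release 29 on GRCh38, by symbol, and promoters from RefSeq.

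The genes, lists and tests were chosen with earlier results of these data known. Receptor genes called in any of the 5 comparisons are given with their library values, and of each target list up to 4 called genes with the largest change are named; 2 genes of the lists are not reported here. No 2 libraries of a group agreed within sampling noise, so none was treated as a duplicate of another. The procedure was run on simulated counts for 11 libraries, which held no GC trend and no departing library. It recovered 70% of 2-fold and 91% of 4-fold changes, and 4.73% of its calls were of unchanged genes. The simulation cannot show how the tests behave with such a trend or library.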

Additional observations from a re-analysis of the deposited data

Results flagged for a closer look

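The response to T3 differed between TRB and EV cells for 2 of 24 receptor genes with all 12 libraries, where 2.59% of all genes passed, and for 6 with 11 libraries, where 15.2% did, by the edgeR test of the interaction of vector and treatment, given as the log2 fold change in TRB minus that in EV cells. HNF4A had -1.47 (SE 0.307, edgeR adjusted p = 0.0334) with all 12 libraries and -1.19 (SE 0.155, adjusted p = 0.000314) without TRB with T3 replicate 2. VDR had -1.001 (SE 0.212, edgeR adjusted p = 0.0351) and -0.95 (SE 0.170, adjusted p = 0.00296). With 11 libraries PPARD had 1.66 (SE 0.210, edgeR adjusted p = 0.000273), NR1H3 had -0.94 (SE 0.206, adjusted p = 0.00927), NR2F1 had -0.84 (SE 0.247, adjusted p = 0.0376, but 0.44 with GC offsets and 12 libraries, adjusted p = 0.768) and PPARG had -0.55 (SE 0.135, adjusted p = 0.0175). Of 18 alternative settings the interaction passed in 8 for HNF4A, 4 for VDR, 4 for PPARG, 3 for NR1H3 and 2 for NR2F1. PPARD lay below the vehicle libraries in TRB with T3 replicate 2 and above them in replicates 1 and 3, and its interaction passed in 3 of the 18, each of which leaves that library out or takes out the GC trend.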

How the results depend on the processing

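For T3 in TRB cells, of 24 receptor genes 4 passed with all 12 libraries, 2 to 11 when a library was left out (11 without TRB with T3 replicate 2), 9 in DESeq2, 2 with the compared groups alone, 14 with GC offsets and, with 11 libraries, 17 with GC offsets and 18 with the compared groups alone. The share of all genes that passed moved too: 14.7% with 12 libraries, 33.3% without that replicate, 21.5% in DESeq2, 4.52% with the groups alone, 42.6% with GC offsets and, with 11 libraries, 56% and 50%. The last 2 settings were chosen after seeing the data. For T3 in EV cells the count was 0 (0.229% of all genes), and 0 to 2 with a library left out (7.33% where it was 2), 1 in DESeq2 (1.19%), 1 with the groups alone (1.49%), 2 with GC offsets (4.46%) and 8 with GC offsets and 11 libraries (17.7%). For TRB against EV cells under vehicle it was 0 (0.0208%), and 2 with the groups alone (11.2%). Under T3 it was 3 (6.68%), and 3 to 10 (19.7% where it was 10), 0 with the groups alone (0.241%), 10 with GC offsets (28.7%), 13 with GC offsets and 11 libraries (41.6%), and 7 with the groups alone and 11 libraries (8.85%). For the interaction it was 2 (2.59%), and 0 to 6 (15.2% where it was 6), 0 without a filter (0.783%), 7 with GC offsets (19.2%) and 12 with GC offsets and 11 libraries (34.3%).

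With a replicate block 6 receptor genes passed for T3 in TRB cells, 0 for T3 in EV cells, 0 and 3 for TRB against EV cells with vehicle and T3, and 1 for the interaction. Samples sharing a number correlated at -0.19 to 0.73, over 0.1 in 12 of 18 pairs, and those with other numbers at -0.72 to 0.63, over 0.1 in 9 of 36. Pairs numbered 1 or 3 ran from -0.19 to 0.64, and all pairs numbered 2 were positive, at 0.12 to 0.73. In each group the library numbered 2 deviated against GC content over the receptor genes, with Spearman correlations of -0.42 to -0.92. So did TRB with vehicle replicate 3 (-0.27) and TRB with T3 replicate 1 (-0.67). The numbers were not used as pairs in the main fits, and what the libraries numbered 2 share was not tested. RARG under T3 (TRB against EV) changed sign, from -0.32 to 0.57 on the log2 scale with a library left out, with -0.10 under the replicate block. NR2F1 was at 0.00092 there with GC offsets and at 0.44 for its interaction. The cause was not tested. Single-gene values were followed for each receptor gene and comparison called with 12 or with 11 libraries. Against the fit of 12, 431 kept their side of the threshold, 81 gained a call, 48 lost one and 6 changed sign. The 431 include genes that passed neither with 12 libraries nor in the alternative, so they do not count calls that held. Near-zero genes numbered 16, 17 under 1 CPM and 13 at 3 counts or fewer.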

Other observations

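GC content ran with the deviation of several libraries from their group mean, across the 24 receptor genes as across all 12157 genes with a value. The Spearman correlations for EV with T3 were 0.06 (receptor genes) and 0.08 (all genes) for replicate 1, -0.92 and -0.82 for replicate 2 and 0.89 and 0.79 for replicate 3. For EV with vehicle replicate 2 they were -0.90 and -0.66. These describe genes within libraries, which are not independent.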
